A study of Mus musculus with 6 samples.

Results

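The 39 genes described here are known from astrocytes, and all 39 were found by symbol among the 24946 named genes measured in the lateral septum of Nts-Cre mice. They were taken by name from a given list, by a rule that uses no measured value. Nts-Cre mice, on a C57Bl6J background, make Cre recombinase in cells that express the neurotensin gene. All mice received a Cre-dependent virus in the lateral septum, which the labels call AAV5-Introvert-NBL10 and the methods AAV5-Introvert-GFPL10a. According to the methods it makes a GFP-tagged ribosomal protein in the cells with Cre. After 3 or 4 weeks the septum of adult mice was dissected and pooled. Input is RNA of the whole cleared tissue, kept before the pull-down, and IP is the RNA pulled down with anti-EGFP antibodies. There were 3 Input and 3 IP libraries, each pair from 1 pool of 4 to 6 mice, and both groups carry the Cre allele and the virus. No pull-down from mice without Cre was analysed here.

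Astrocytes are glial cells that tile the brain, wrap synapses and place endfeet on blood vessels. They take up glutamate and potassium released by neurons, turn glutamate into glutamine, pass ions and metabolites to each other through gap junctions and secrete lipoproteins. They share a family of transcription factors with neural stem cells, and in several brain regions some of these factors are also made by neurons. In viral-TRAP, mRNA of tagged neurons should be held in IP, and mRNA of cells without the tag, such as astrocytes, should be left behind.

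Values are called normalized counts here, since the submitters list DESeq2 among their tools, but the steps between low values were not those of whole reads divided by 1 factor per library. They add up to 16828024 to 17129150 per Input library and 22781827 to 24958423 per IP library, which would be about 9320000 to 10950000 reads per library if the commonest smallest value stood for 1 read. This is a rough guide only, as 41.9% to 64.1% of the low values of a library lay within 0.05 of a whole number of such reads. IP was compared with Input on the log2(value + 1) scale with limma, and p-values were adjusted over 14859 genes, those at 10 or more in 3 or more libraries. All fold changes below are on that scale. A gene is called lower or higher at an adjusted p under 0.05, and depleted or enriched if the change was also over 2-fold. All 39 astrocyte genes were tested. Their Input means ran from 123 normalized counts for Dio2 to 27250 for Apoe (means of 3 libraries).

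Nearly all of the astrocyte genes had less RNA in IP than in Input. Of the 39, 36 were lower and 32 of these were depleted by more than 2-fold, while 3 were higher, namely Sox2, Id4 and Mt3. Among all tested genes 17.2% were depleted, 32.2% were lower, 31.4% were higher and 12.6% were enriched. The median log2 fold change of the 39 genes was -1.90, against -0.06 for all tested genes. The size of the fall differed between genes: 17 genes fell by more than 4-fold, 15 fell by between 2-fold and 4-fold, and 4 fell by less than 2-fold. The 3 IP libraries lay below all 3 Input libraries for 35 of the 39 genes, which was the case for 35.4% of tested genes, and above them for 3 genes, which was the case for 34.2%. Input and IP of a pool came from the same tissue, so a fold change here compares the fractions. It is not a measure of the number of astrocytes or of RNA per astrocyte. The scaling between libraries moves the whole scale. With library totals set equal, the median of all tested genes was -0.54, that of the 39 genes was -2.39, and enriched genes made up 12.8% of all genes called as depleted or enriched, in place of 42.3%. That share was 26.6% with equal upper quartiles, 9.85% with pan-neuronal genes set equal and 30.1% without the trend with transcript length that is described with the metallothioneins. The distance between both medians was -1.84 under the deposited scaling and -1.85 with equal totals. Such a scaling shifts all genes nearly alike, so it could hardly change this distance. After removal of the trend with length the distance was -2.18.

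**Figure D1:**
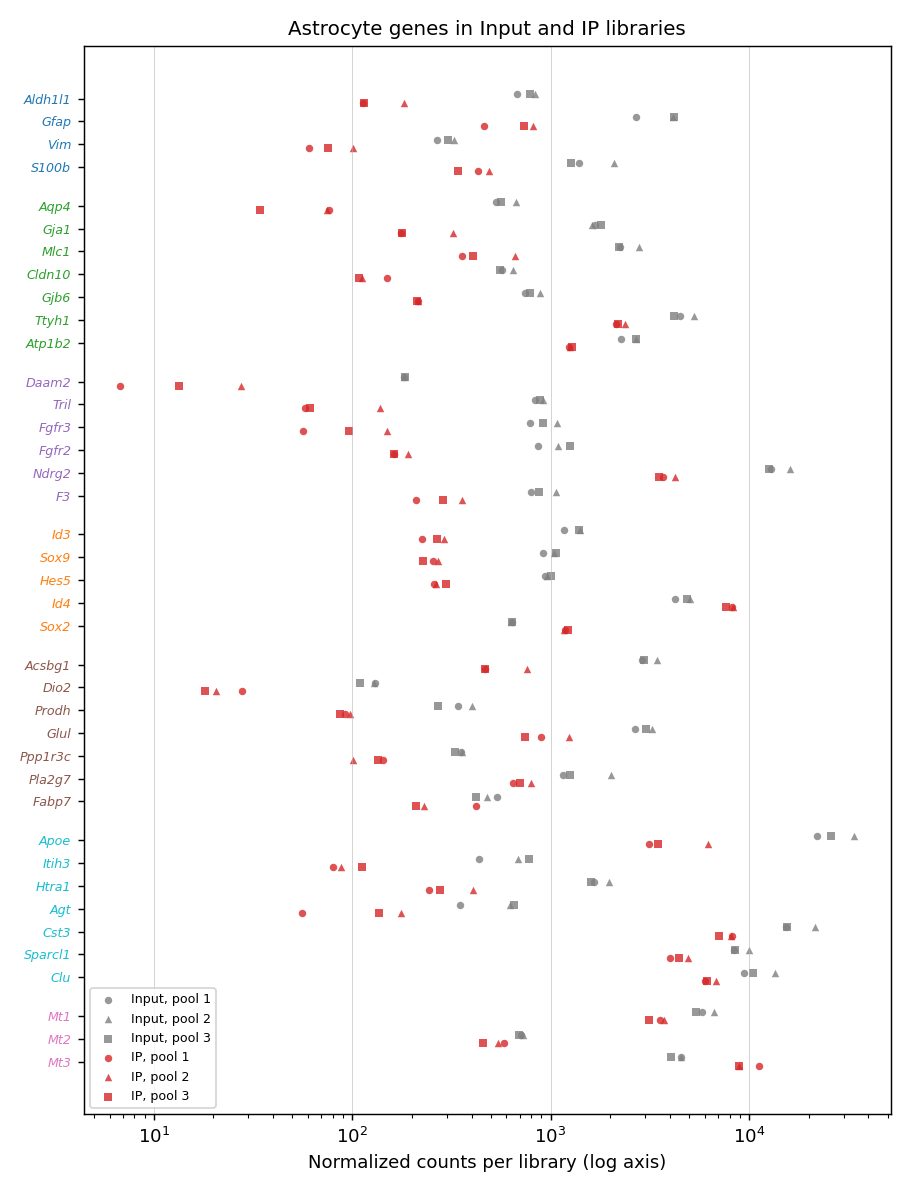
Normalized counts (log axis) of the 39 astrocyte genes in each Input library (grey) and IP library (red), with the symbol giving the pool. Genes stand in blocks by role in the same order as in the plot of changes, and the IP points lie left of the Input points for 35 genes and right of them for Sox2, Id4 and Mt3. For Fabp7, IP of pool 1 meets Input of pool 3 at 419.5.

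Genes of the astrocyte cytoskeleton and classical marker proteins fell as a block, with all 4 depleted (median -2.20). Gfap, the intermediate filament protein by which astrocytes are commonly recognised, had 2699, 4155 and 4197 normalized counts in Input of pools 1 to 3 and 465, 815 and 734 in IP. No IP library came near an Input library. The log2 fold change was -2.47 (SE, the standard error from limma, 0.20, limma adjusted p = 4.6e-07). Aldh1l1, a folate enzyme used as a general astrocyte marker, had 675, 834 and 790 normalized counts in Input and 113, 182 and 115 in IP. It fell furthest in this group, at a log2 fold change of -2.51 (SE 0.19). Vim, a second filament protein that vessel walls and ependyma also make, had a log2 fold change of -1.93, and S100b, a calcium-binding protein also found in oligodendrocyte lineage cells, one of -1.89. In GRCm38 (mm10), Gfap lies on chromosome 11 from 102887336 to 102900912 and Aldh1l1 on chromosome 6 from 90486427 to 90600203, both as protein-coding genes.

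Channels, junction proteins and other membrane proteins were depleted in 7 of 7 cases (median -2.26), with 5 genes at log2 fold changes of -3.31 to -1.90 and the other 2 near the 2-fold limit. Aqp4, the water channel of astrocyte endfeet, had 529, 672 and 562 normalized counts in Input and 76.7, 74.8 and 34.3 in IP, a log2 fold change of -3.31 (SE 0.27, limma adjusted p = 4.9e-07). This was the largest change of the group. Gja1, which encodes the gap junction protein connexin 43, had a log2 fold change of -2.97 (SE 0.20). Its partner Gjb6, which encodes connexin 30, had 743, 885 and 788 normalized counts in Input and 214, 215 and 213 in IP, a log2 fold change of -1.90 (SE 0.13). Both connexin genes were therefore lower in every IP library, and the number of Gjb6 counts per Gja1 count went from 0.436 to 0.549 in Input to 0.666 to 1.22 in IP. The IP libraries lay above the Input libraries in this ratio (difference 1.06 on the log2 scale, exact two-sided permutation p = 0.1, the smallest that 3 libraries against 3 allow). Since that test cannot go under 0.05, this ratio is given as a description. Mlc1, a membrane protein of endfeet, and Cldn10, a claudin, had log2 fold changes of -2.39 and -2.26. Ttyh1, a membrane protein with the highest Input level of the group, had 4473, 5266 and 4183 normalized counts in Input and 2141, 2376 and 2188 in IP. Its log2 fold change of -1.05 (SE 0.10) and that of Atp1b2, a subunit of the sodium pump, of -1.01 (SE 0.10) were close to the 2-fold limit. Neither gene is confined to astrocytes in the brain.

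Receptors and signalling proteins were depleted in 6 of 6 cases and had the lowest median of any group (-2.94). Daam2, a formin of the Wnt pathway, had the largest fall of all 39 genes, from 182, 183 and 184 normalized counts in Input to 6.8, 27.7 and 13.4 in IP, a log2 fold change of -3.64 (SE 0.42, limma adjusted p = 8.3e-06). The log2 ratio of IP to Input varied more between pools for Daam2 than for any other of the 39 genes (SD 0.94). Tril, which takes part in Toll-like receptor signalling, and Fgfr3, a fibroblast growth factor receptor, had log2 fold changes of -3.46 and -3.28. Fgfr2, the related receptor that oligodendrocytes also make, had one of -2.61 (SE 0.16). The first rank of Daam2 depended on the value added before the logarithm. With 10 in place of 1 added, the fall of Daam2 (-2.98) was smaller than those of Tril (-3.31), Fgfr3 (-3.15) and Aqp4 (-3.11). Exons of 11 of the 39 genes overlap another annotated gene, 5 of them one that is also in the files. For Fgfr2 it is Ctbp2 on the same strand (210 bases). The locus annotated for Fgfr2 runs from 130162451 to 133123350 on chromosome 7 and spans Htra1, another of the 39 genes. Whether reads in the overlap could be counted for either gene is not known, as the annotation used for counting is not stated. F3, the tissue factor gene, had a log2 fold change of -1.69. Ndrg2, a cytoplasmic protein of astrocytes, had the highest level of the group, with 12937, 16198 and 12688 normalized counts in Input and 3689, 4258 and 3521 in IP (log2 fold change -1.86, standard error 0.11). Its ratio was nearly the same in each pool, at -1.81, -1.93 and -1.85.

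**Figure D2:**
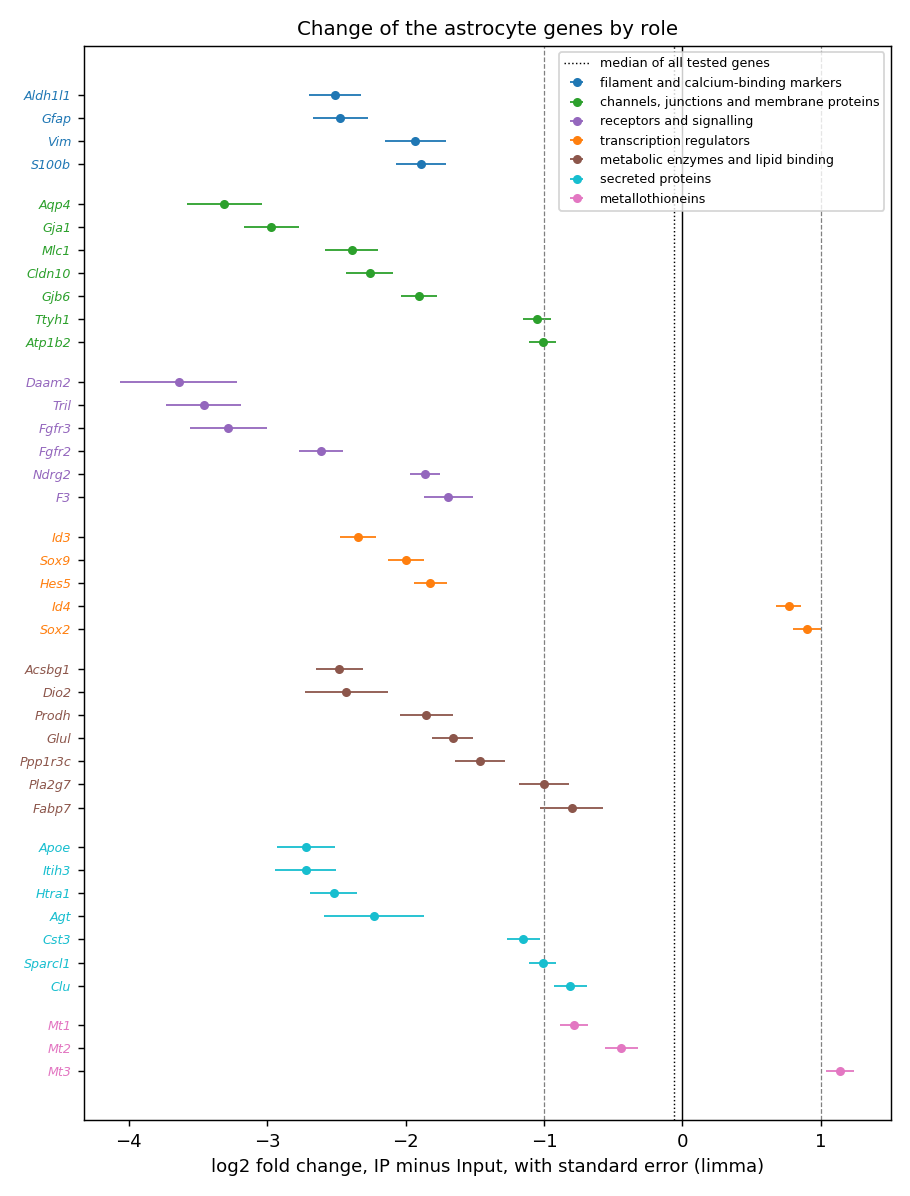
Log2 fold change of IP against Input with its limma standard error for each of the 39 genes, coloured by role. Dashed lines mark a 2-fold change and the dotted line the median of all tested genes (-0.06). Points run from -3.64 for Daam2 to 1.14 for Mt3, and those to the right of 0 are Id4, Sox2 and Mt3.

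Metabolic enzymes and lipid-binding proteins were lower in 7 of 7 cases, of which 6 were depleted (median -1.66). Acsbg1, an acyl-CoA synthetase, had 2904, 3443 and 2950 normalized counts in Input and 470, 764 and 469 in IP. This was both the highest Input level and the largest change of the group (log2 fold change -2.48, standard error 0.17, limma adjusted p = 9.7e-08). Glul, which makes glutamine from glutamate and ammonia, had 2664, 3239 and 3027 normalized counts in Input and 893, 1233 and 747 in IP, a log2 fold change of -1.66 (SE 0.15). Dio2, which activates thyroid hormone, had a log2 fold change of -2.43 (SE 0.30) at the lowest Input level of the 39 genes. Prodh, the first enzyme of proline breakdown, and Ppp1r3c, which targets a phosphatase to glycogen, had log2 fold changes of -1.85 and -1.46. Pla2g7, a secreted phospholipase, had a log2 fold change of -1.0 (SE 0.18), just past the 2-fold limit. Fabp7, a fatty acid binding protein of radial glia, astrocytes and oligodendrocyte precursors, was the only one of the 39 genes whose groups overlapped. It had 538, 477 and 419.5 normalized counts in Input and 419.5, 229 and 211 in IP, a log2 fold change of -0.80 (SE 0.23, limma adjusted p = 0.0077). Fabp7 no longer passed without pool 2 (-0.67, limma adjusted p = 0.093) or with no trend of the variance on the level (adjusted p = 0.051).

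Genes of secreted proteins were lower in 7 of 7 cases, of which 6 were depleted (median -2.23). Apoe, the main lipid carrier of the brain, had 21987, 33794 and 25969 normalized counts in Input, more than any other of the 39 genes, and 3141, 6227 and 3480 in IP. The log2 fold change was -2.72 (SE 0.21, limma adjusted p = 3.4e-07). Apoe alone made up 18.5% to 21.7% of the summed value of the 39 genes in Input and 5.29% to 9.54% in IP. Itih3, a protein that binds hyaluronan, had the same log2 fold change of -2.72 at a far lower level, with 436, 683 and 779 normalized counts in Input and 80, 87.5 and 112 in IP. Htra1, a secreted protease, and Agt, the angiotensin precursor, had log2 fold changes of -2.52 and -2.23. The value for Agt had a larger SE (0.36), and both groups were spread, with 349, 622 and 655 normalized counts in Input and 56.0, 177 and 136 in IP. The other 3 genes of secreted proteins fell less. Cst3, the cysteine protease inhibitor cystatin C, had 15334, 21569 and 15601 normalized counts in Input and 8216, 8122 and 7058 in IP (log2 fold change -1.15, standard error 0.12). Sparcl1, a matrix protein that acts on synapses, had a log2 fold change of -1.01 (SE 0.10). Clu, the chaperone clusterin, had 9433, 13488 and 10503 normalized counts in Input and 5986, 6798 and 6148 in IP, a log2 fold change of -0.81 (SE 0.12, limma adjusted p = 7.0e-05).

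Transcription regulators split within families. Sox9, which drives glial fate, had 917, 1038 and 1064 normalized counts in Input and 255, 270 and 229 in IP, a log2 fold change of -2.0 (SE 0.13). Sox2, a factor of neural stem cells and glia of the same family, had 640, 632 and 640 normalized counts in Input and 1180, 1168 and 1221 in IP. Its libraries were very alike within each group and did not overlap between groups, and its log2 fold change was 0.90 (SE 0.10, limma adjusted p = 5.4e-06). The Sox2 count per Sox9 count thus went from 0.602 to 0.698 in Input to 4.32 to 5.33 in IP, which is given as a description, since the opposite directions of both genes fix the order of the groups. Sox2 lies on chromosome 3 from 34650405 to 34652461 in GRCm38, and no exon of another gene overlaps its exon in the annotation. Sox2ot, a noncoding RNA named for its overlap with Sox2 and added after its values were seen, moved the other way, with 636, 709 and 823 normalized counts in Input and 587, 408 and 456 in IP (log2 fold change -0.59, limma adjusted p = 0.0048). For Sox2ot that call was lost without pool 2 or pool 3 (adjusted p = 0.055 and 0.074) and after removal of the trend with length (0.053).

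The Id genes, whose proteins bind other helix-loop-helix factors and keep them from DNA, showed the same split. Id3 had 1171, 1412 and 1395 normalized counts in Input and 225, 289 and 269 in IP, the largest change of the group, at a log2 fold change of -2.34 (SE 0.13, limma adjusted p = 4.2e-08). Id4, the most abundant of these regulators, had 4245, 5053 and 4899 normalized counts in Input and 8184, 8326 and 7698 in IP, a log2 fold change of 0.77 (SE 0.09, limma adjusted p = 8.8e-06). There were 3.51 to 3.62 Id4 counts per Id3 count in Input and 28.6 to 36.4 in IP, again as a description. Id4 lies on chromosome 13 from 48261228 to 48266026 in GRCm38, where short stretches of its exons overlap transcripts of the opposite strand. One of these, A330033J07Rik, was listed at no more than 57.0 normalized counts in any library. Hes5, a target of Notch signalling, fell with Id3 and Sox9 (log2 fold change -1.82, standard error 0.12). Both rises were smaller than 2-fold under the deposited scaling and depended in size on the scaling. For Sox2 the log2 fold change was 0.42 with equal library totals and 0.33 when libraries were set equal on pan-neuronal genes. For Id4 it was 0.29 and 0.20, and the last value did not pass the test (limma adjusted p = 0.13). After removal of the trend with transcript length it was 0.57 for Sox2 and 1.06 for Id4 (limma adjusted p = 1.3e-06), so that Id4 was then called enriched.

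The metallothioneins, small cysteine-rich proteins that bind zinc and copper, moved apart before any correction for transcript length. The genes stand in a row on the forward strand of chromosome 8, in the order Mt3, Mt2, Mt1, within 27.7 kb (Mt3 from 94152607 to 94154146, Mt2 from 94172664 to 94173568 and Mt1 from 94179082 to 94180327 in GRCm38). Mt1 and Mt2 are induced by metals and glucocorticoids in many cell types, whereas Mt3 is a form typical of brain that both astrocytes and zinc-rich neurons make. Their promoter windows are shown because these neighbours went in different directions before that correction. After removal of the trend with transcript length all of them were lower (log2 fold changes of -0.32 for Mt3, -1.93 for Mt2 and -1.70 for Mt1). Each run covers 250 bases before and 50 bases after the start site that RefSeq gives on GRCm38.p6, from 5′ to 3′ on the gene's strand. Capitals mark the core of the metal response element, to which the zinc sensor MTF-1 binds, searched on both strands as TGCACNC or TGCGCNC.
Mt1, chr8:94178839-94179138: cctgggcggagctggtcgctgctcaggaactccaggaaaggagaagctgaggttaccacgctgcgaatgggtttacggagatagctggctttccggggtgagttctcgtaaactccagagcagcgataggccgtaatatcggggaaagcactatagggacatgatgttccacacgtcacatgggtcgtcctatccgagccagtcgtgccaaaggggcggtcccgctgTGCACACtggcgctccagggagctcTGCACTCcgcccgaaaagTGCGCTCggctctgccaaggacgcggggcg
Mt2, chr8:94172368-94172667: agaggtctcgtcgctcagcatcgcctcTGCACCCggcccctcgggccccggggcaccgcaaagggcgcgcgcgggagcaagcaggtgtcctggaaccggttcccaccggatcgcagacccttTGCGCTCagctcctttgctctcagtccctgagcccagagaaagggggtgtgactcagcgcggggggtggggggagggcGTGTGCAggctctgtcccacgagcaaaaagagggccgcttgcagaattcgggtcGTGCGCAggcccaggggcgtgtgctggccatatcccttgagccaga
Mt3, chr8:94152357-94152656: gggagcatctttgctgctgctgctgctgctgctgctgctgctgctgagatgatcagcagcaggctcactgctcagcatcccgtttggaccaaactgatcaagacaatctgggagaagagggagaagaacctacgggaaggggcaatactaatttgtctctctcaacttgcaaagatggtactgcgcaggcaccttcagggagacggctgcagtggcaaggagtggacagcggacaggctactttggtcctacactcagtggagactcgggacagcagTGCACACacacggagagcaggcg
The window of Mt1 held 3 matches, that of Mt2 held 4 and that of Mt3 held 1, and none of them overlapped. Among all 27025 promoter windows of this length, 25.6% held at least 1 match and 2% held at least 3. Of the 34 astrocyte genes with a window in the table, 11 (32.4%) held a match. Other start sites of these genes were not searched. Any relation between these matches and the change in IP was not tested.

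Mt1 had 5817, 6675 and 5385 normalized counts in Input and 3548, 3746 and 3136 in IP, a log2 fold change of -0.78 (SE 0.10, limma adjusted p = 2.6e-05). Mt2 had 707, 727 and 695 normalized counts in Input and 580, 542 and 459 in IP, a log2 fold change of -0.44 (SE 0.12, limma adjusted p = 0.0075), and it did not pass without pool 3 (adjusted p = 0.077). All IP libraries lay below the Input libraries for both genes, and these were the smallest falls of the 36 genes that fell. Mt3 had 4555, 4553 and 4037 normalized counts in Input and 11203, 8958 and 8877 in IP, a log2 fold change of 1.14 (SE 0.10, limma adjusted p = 1.0e-06). Under the deposited scaling no other gene of the 39 was enriched by more than 2-fold. There were 0.682 to 0.783 Mt3 counts per Mt1 count in Input and 2.39 to 3.16 in IP, a ratio whose direction the 2 genes fix. Exons of Mt2 overlap an antisense transcript in the annotation that is not among the genes tested, and no source used here says whether reads were counted by strand.

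The direction of Mt3 depended on how transcript length was treated. Across the 14732 tested genes with an annotated length, short transcripts stood higher in IP: the log2 fold change had a median of 1.24 in the 846 genes of up to 1 kb, 0.14 in the 3259 genes of 2 to 3 kb and -0.54 in the 1958 genes of over 6 kb. Mt3 and Mt2, with 0.536 kb and 0.511 kb for their longest annotated transcripts, are the shortest of the 39 genes, and both lay below the median of their length class. When the trend with length was removed from each library, Mt3 had a log2 fold change of -0.32 (limma adjusted p = 0.001), Mt2 of -1.93 and Mt1 of -1.70. The call of enrichment over 2-fold was also lost with equal library totals (0.65), with equal upper quartiles (0.91) and on pan-neuronal genes (0.56), where Mt3 was still higher. Over the 39 genes, log2 length and log2 fold change had a Pearson correlation of -0.52 and a Spearman correlation of -0.54. Over the 36 genes without the metallothioneins these were -0.33 and -0.44, and over 14732 genes -0.39 and -0.45. All values are from the same 6 libraries, and genes are not independent replicates.

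**Figure D3:**
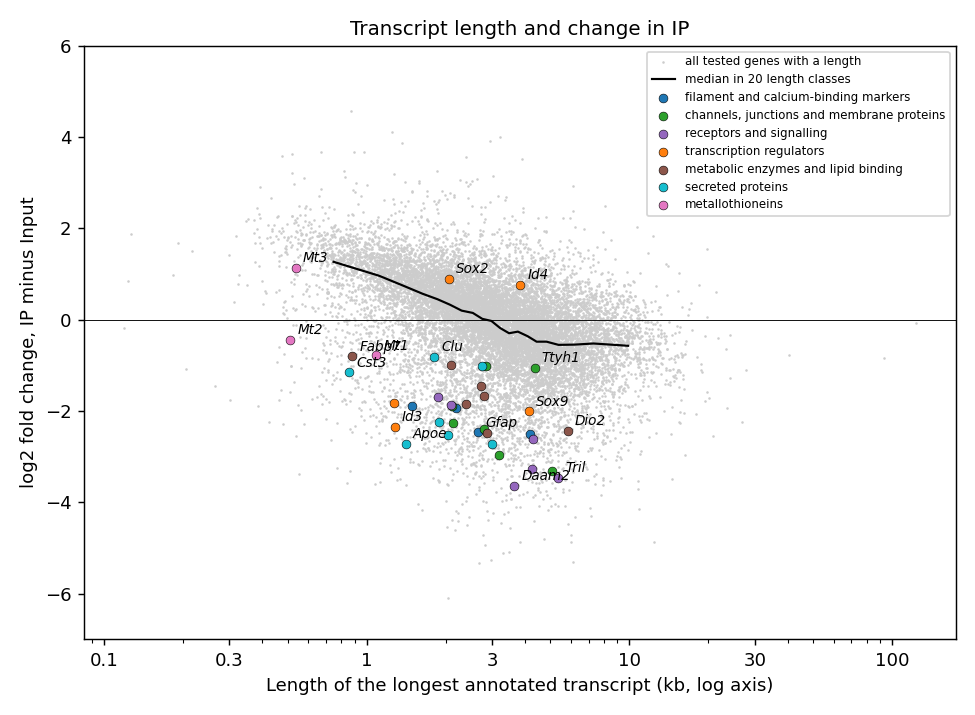
Length of the longest annotated transcript (kb, log axis) against the log2 fold change of IP over Input for tested genes (grey points) and for the 39 astrocyte genes (coloured by role). The black line joins the medians of 20 length classes. Mt3 lies on the short side just below that line, Sox2 and Id4 lie above it, and the other 36 genes lie below it.

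**Figure D4:**
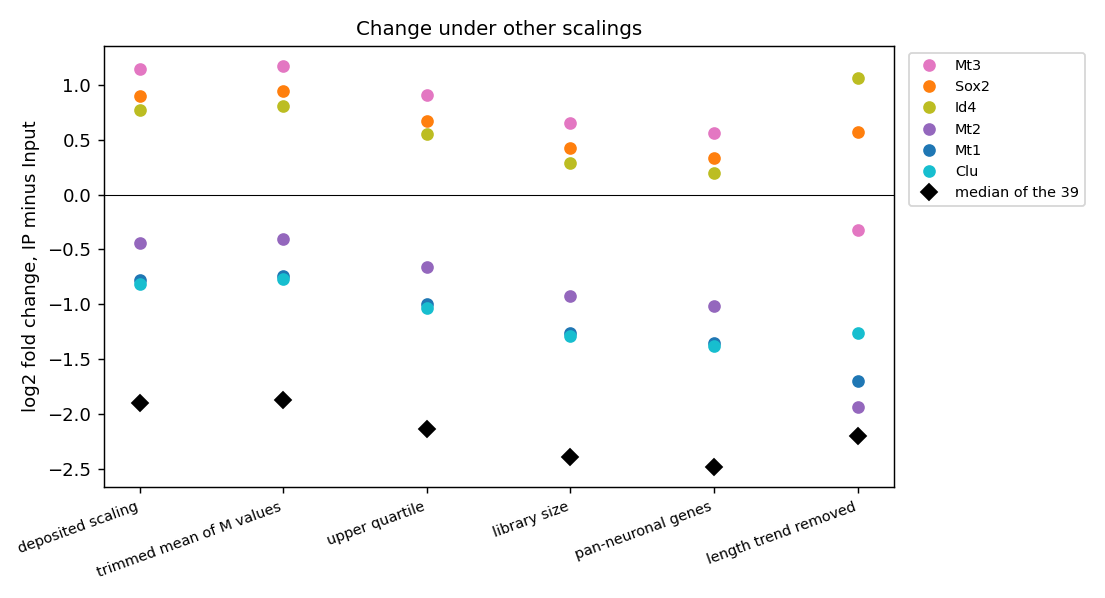
Log2 fold change of IP over Input of 6 genes and the median of all 39 (diamonds) under the deposited scaling, under 4 other scalings and after removal of the trend with transcript length. Sox2 and Id4 stay above 0 throughout, down to 0.20 for Id4, and Mt3 goes from 1.14 to -0.32 in the last setting.

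Per kilobase of transcript, the order of the levels differed between fractions. In Input, Cst3 and Apoe led with 20400 and 19400 normalized counts per kb, ahead of Mt3 with 8170, Ndrg2 with 6630 and Clu with 6160. In IP, Mt3 led with 18100 normalized counts per kb, followed by Cst3 with 9070, Clu with 3490, Mt1 with 3200 and Apoe with 3040. Cst3 and Apoe, and Ndrg2 and Clu, differed in Input by less than the spread of their libraries, and so did Clu and Mt1, Mt1 and Apoe, and Apoe and Id4, in IP. Id4 came next in IP with 2100 normalized counts per kb, while Gfap had 1390 normalized counts per kb in Input and 253 in IP. The length used is that of the longest annotated form, and other forms were not considered. These levels were not corrected for the trend with length, by which short transcripts such as Mt3 stood higher in IP.

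Part of the 39 genes are well known from other cells of the brain too, among them Apoe and Cst3 from microglia, Glul, S100b and Fgfr2 from oligodendrocytes, Vim and Id3 from vessels, and Clu, Mt3 and Ttyh1 from neurons. For 18 such genes the median log2 fold change was -1.10, with 12 depleted, 4 lower by less than 2-fold and 2 higher. For the other 21 genes the median was -2.39, with 20 depleted and 1, Id4, higher. All 4 genes that fell by less than 2-fold (Clu, Mt1, Mt2 and Fabp7) belong to the first set. Both sets were drawn up by hand with earlier results of these data known, so this difference is a description only. The longest annotated transcripts of these 4 genes have 1.81 kb (Clu), 1.085 kb (Mt1), 0.511 kb (Mt2) and 0.88 kb (Fabp7), and short transcripts stood higher in IP. After removal of the trend with length, Mt1 had a log2 fold change of -1.70 and Mt2 of -1.93. The part of transcript length in the difference between both sets was not tested.

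Across pools the astrocyte genes moved together. All 36 genes that fell were lower in IP in each of the 3 pools, and the 3 that rose were higher in each pool. The SD of the log2 ratio between pools had a median of 0.23 and ran from 0.03 for Sox2 to 0.94 for Daam2. Pool 2 had the highest values in both fractions for most of the genes: its IP library was the highest of the 3 IP libraries for 27 of the 39 genes (69.2%, against 31.0% of all tested genes), and its Input library was the highest of the 3 Input libraries for 27 genes too (69.2%, against 34.3%). Apoe in IP shows the pattern, with 6227 normalized counts in pool 2 beside 3141 and 3480. The summed value of the 39 genes was 0.696% to 0.909% of the total in Input and 0.238% to 0.286% in IP, with pool 2 the highest in both. Markers of other glia moved with it: 12 of 13 oligodendrocyte genes and 9 of 12 microglia genes were highest in IP of pool 2, and the summed oligodendrocyte genes were 14849, 23633 and 17475 normalized counts in IP of pools 1 to 3. Their part in the values of the astrocyte genes was not tested. Without pool 2, 29 astrocyte genes were depleted and 35 were lower, with a median of -1.84.

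**Figure D5:**
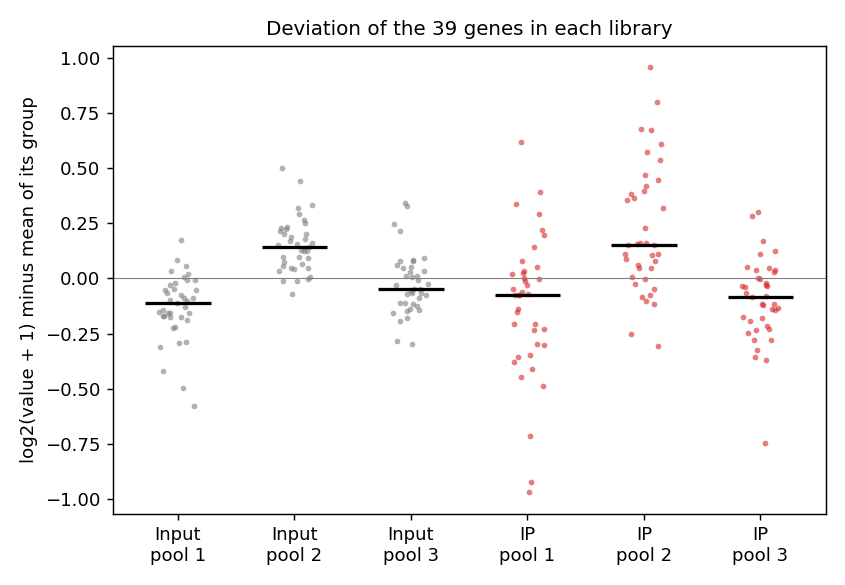
Deviation of log2(value + 1) from the mean of its group for the 39 astrocyte genes in each library, with a bar at the median (Input grey, IP red, points spread sideways for sight). The medians of pool 2 are 0.14 in Input and 0.15 in IP, and those of the other libraries are -0.11 to -0.05.

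Other genes of astrocytes, from a list of 46 that excludes the 39, were mostly lower too: 43 were lower, 40 of these were depleted, 2 did not pass and 1 was higher, and the median log2 fold change was -2.16. Among all tested genes 32.2% were lower and 17.2% depleted. The 46 genes were chosen with earlier results of these data known, so they are no independent check. Among 10 genes of glutamate and GABA uptake and amino acid use, Slc1a3, the glutamate transporter GLAST, had 5202, 6271 and 5440 normalized counts in Input and 731, 1257 and 788 in IP (log2 fold change -2.64). Slc1a2, the other main glial glutamate transporter, had a log2 fold change of -2.04, and Glud1, glutamate dehydrogenase, which neurons also make, one of -0.32. The call for Glud1 was lost without pool 3 (-0.34, adjusted p = 0.052) and without the trend with length (-0.15, adjusted p = 0.086). The exception was Slc7a11, the cystine-glutamate exchanger, with 1034, 1143 and 1536 normalized counts in Input and 1710, 1557 and 1956 in IP (log2 fold change 0.51, limma adjusted p = 0.0073). Its Input library of pool 3 came close to its lowest IP library, and the call for Slc7a11 was lost without pool 1 (0.40, adjusted p = 0.063), with no variance trend (0.51, adjusted p = 0.053), with equal upper quartiles (0.28, adjusted p = 0.097) and with equal library totals (0.02, adjusted p = 0.89). On pan-neuronal genes it was -0.07 (adjusted p = 0.72).

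All 7 genes of ion channels and carriers were depleted (median -2.58), led by level by Hepacam, an adhesion partner of Mlc1, with -2.58, and including the zinc carrier gene Slc39a12 with -3.08. Of 11 receptor genes 10 were depleted (median -2.27), with S1pr1, a sphingosine phosphate receptor, at -3.14. Gabbr1, a GABA-B receptor subunit that neurons also make, did not pass (log2 fold change 0.20, limma adjusted p = 0.14). Other settings called Gabbr1 in opposite directions, lower with equal library totals (-0.29, adjusted p = 0.044) and on pan-neuronal genes (-0.38, adjusted p = 0.0087) and higher without the trend with length (0.64, adjusted p = 0.00042). Of 18 genes of enzymes, adhesion and secreted proteins, 17 were lower (median -1.71). Prdx6, a peroxiredoxin, had the highest level and a log2 fold change of -1.50, and Mertk, a receptor for engulfment, the largest change with -3.88. Gpc4, a glypican, did not pass (log2 fold change -0.37, limma adjusted p = 0.25), but was lower with equal library totals (-0.84, adjusted p = 0.013) and on pan-neuronal genes (-0.93, adjusted p = 0.0083).

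Of 22 genes linked to reactive astrocytes, 16 reached the level for a test, of which 12 were lower and 4 did not pass (median -1.05). Stat3, a transcription factor of the reactive response that many cells make, had a log2 fold change of -0.99, and Cp, ceruloplasmin, had 51.2, 51.5 and 62.8 normalized counts in Input and 4.5, 11.3 and 0 in IP. Lcn2, often used as a sign of strong reactivity, was listed at no more than 22.2 normalized counts in any library. Other genes of the list stood higher, such as Serpina3n with 441, 254 and 619 normalized counts in Input and 181, 183 and 345 in IP (log2 fold change -0.86). H2-D1, the highest of the list in level, did not pass (log2 fold change 0.01, limma adjusted p = 0.97). Whether astrocytes were reactive was not tested. Of 12 genes of zinc and copper handling, 6 were higher, 3 were lower and 3 did not pass. Their median of 0.11 lay near that of all tested genes (-0.06), of which 31.4% were higher and 32.2% lower. Atox1, a copper chaperone, had a log2 fold change of 1.93 and Sod1, copper-zinc superoxide dismutase, one of 1.53, which was 0.19 after the trend with length was removed (adjusted p = 0.062). Slc30a3, the zinc carrier of synaptic vesicles, had 928, 735 and 419 normalized counts in Input and 224, 252 and 303 in IP (log2 fold change -1.35), with pool 1 highest in Input and lowest in IP.

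Set beside lists of other cells, the astrocyte median of -1.90 compares with -2.48 for 13 oligodendrocyte genes and -2.60 for 12 microglia genes, all of which were depleted. The 16 pan-neuronal genes had a median of 0.59, with 11 higher and 2 lower, and all 6 genes of GABAergic neurons were higher (median 1.10). Of the 16, 4 were enriched and 1, Map2, was depleted (-1.13), and of the 6, 3 were enriched. The size of these rises depends on the scaling, as the median of all tested genes was -0.54 with equal library totals. Summed, the pan-neuronal genes were 1.05% to 1.21% of the total in Input and 1.27% to 1.29% in IP. Of 7 genes of oligodendrocyte precursors 5 were lower (median -2.55), of 9 tested genes of endothelial and mural cells 4 were lower (median -1.23) and of 7 of ependyma and choroid plexus 4 were lower (median -1.81), while the others did not pass. With the pools as a block, 6 of 9 endothelial and mural genes were lower, with Cldn5 and Vtn added (adjusted p = 0.033 and 0.014), and 6 of 7 of ependyma and choroid plexus, with Ttr and Kl added (adjusted p = 3e-05 and 0.0061). The choroid plexus and ependyma list added up to 926, 1789 and 14764 normalized counts in Input of pools 1 to 3 and to 626, 843 and 2518 in IP. Ttr, the transthyretin of choroid plexus, made up 12850 of the 14764 in Input of pool 3, and without it the sums were 904, 1182 and 1914 in Input and 610, 732 and 818 in IP. No marker in any of these lists was at 0 in all libraries. Differences between these lists and the astrocyte genes were not tested.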

How the data were processed

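RNA of 3 Input and 3 IP libraries was measured after SMARTer Ultralow amplification on a HiSeq2500. The deposited files, 1 for each library, hold a signal per gene that the authors normalized, by DESeq2 as far as the listed tools tell. STAR, DESeq2 and the build mm10 are listed in the notes of the submitters on processing, whereas the methods name TopHat, Cufflinks and annotated UCSC mRNAs of mm10. Which of them made the deposited values, the versions and any strand setting are not stated. Of 24972 entries, 26 with a date in place of a symbol (0.188% to 0.32% of a library) were left out. The value of 1 read varied between genes, and at most 64.1% of low values in a library lay within 0.05 of a whole number of reads, and a count model was therefore not fitted.

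The values were fitted in limma 3.58.1 (R 4.3.3) on log2(value + 1) with variances that follow the level (8.55 prior degrees of freedom) and Benjamini-Hochberg adjustment, over genes that stood at 10 or more in 3 or more libraries. The code was first tested on simulated data. The study's thresholds, an adjusted p under 0.05 and 2-fold, were used. Each pool gave an Input and an IP library according to the methods, so the replicate number pairs the libraries. The correlation of deviations from the group mean was 0.109, 0.095 and 0.099 within pools and -0.083 to -0.013 between pools. The methods name no pairing term, so the fit has none, and the block was an alternative. Other alternatives were 4 scalings, 3 filters, 2 pseudocounts, no variance trend, removal of the trend with transcript length by lowess, and leaving out each library or pool. Squared differences between replicate libraries were 6.92 to 19.3 times those of read sampling, so none repeated another.

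Every one of the 39 genes could be named, and values per library were given for the most abundant and the most changed gene of each role group, for exceptions and for the metallothioneins. From the other lists, genes among the highest in level or the largest in change, or against the median, were named. Library values of Gjb6, Sox9, Glul, Fabp7, Agt, Cst3 and Clu, and the genes Slc1a2, Gpc4, Lcn2, Serpina3n, H2-D1 and Sox2ot, were added after values were seen. The genes and lists were chosen with earlier results of these data known. Lengths and coordinates are from GENCODE M21 (GRCm38), which held 24464 names as written and 58 through RefSeq synonyms, and promoter windows are from RefSeq on GRCm38.p6. Figures were drawn with matplotlib 3.10.9.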

Additional observations from a re-analysis of the deposited data

How the results depend on the processing

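Of the 39 astrocyte genes, 36 were lower and 3 higher in 15 of the 21 alternatives. Their count of depleted genes was 32, and 29 to 36 across the alternatives other than leaving out a library or pool, where it was 27 to 32. With equal library totals 4554 genes of all tested were depleted and 671 enriched, with equal upper quartiles 1234 were enriched, on pan-neuronal genes 5069 were depleted and 554 enriched, and without the trend with length 928 were enriched. The median of the 39 genes was -2.39, -2.13, -2.48 and -2.20 in these 4 settings. Over the 9 fits without a library or a pool it was -2.01 to -1.83, 2208 to 2740 genes were depleted, 1610 to 2076 enriched, 35 to 36 of the 39 genes lower and 3 higher. With the replicate block 2608 genes were depleted and 1882 enriched, and no call of the 39 genes changed, while Cldn5, Vtn, Ttr, Kl and Stx1a became lower among the other lists.

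Mt3 reversed to -0.32 without the trend with length, where Id4 at 1.06 became enriched. Outside the list, Gabbr1 reversed to -0.29 with equal totals, to -0.03 with equal upper quartiles and to -0.38 on pan-neuronal genes, and Slc7a11 to -0.07 on pan-neuronal genes. Of 818 refits of single astrocyte genes 4 lost the call, for Id4 on pan-neuronal genes, for Fabp7 in 2 settings and for Mt2 without pool 3. The cause was not tested. A filter of 10 in each library removed Daam2, whose lowest IP value was 6.8. The libraries hold no control pull-down, and 3 pools limit every test.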
